A study of Mus musculus with 12 samples.

Results

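The genes described here carry fatty acids into the hepatocyte and bind them there, together with the nuclear receptor that senses them. They are the 9 genes Cd36, Slc27a2, Slc27a4, Slc27a5, Fabp1, Fabp2, Fabp4, Fabp5 and Ppara, chosen by symbol for their roles out of 48795 genes listed, and all 9 held enough counts to be tested. Liver RNA from 12 female mice, 4 months old and on normal chow, was sequenced to ask what neurotensin, a gut peptide encoded by Nts, does to the fed and the fasted liver. Mice 254, 257 and 323 were labelled Nts+/+ and fed ad libitum, and mice 265, 282 and 322 carried the same label and went without food for 22 h. Mice 277, 303 and 319 were fed and labelled Nts-/-, while mice 284, 290 and 295 of that label were fasted for the same 22 h. Each group is called here by its label. The knockout is of the whole body, not of hepatocytes alone. The mice are called littermates, but which mice share a litter is not given, so litter and group cannot be told apart.

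Total counts lay between 21999656 and 45273081 per mouse, so that 3 counts, taken as the floor of detection for counting error only, were worth between 0.0709 and 0.142 TMM-normalized CPM, which are counts scaled to the size of each library. The summed hepatocyte markers made up between 122100 and 157700 CPM in every liver. Counts of the targeted gene did not follow its labels in the direction of a loss. Nts had 0 counts in all 6 livers labelled Nts+/+, and it had 46, 40 and 15 counts in the fed and 12, 4 and 18 counts in the fasted livers labelled Nts-/-. Nts reads were thus seen only under the label in which the gene is said to be knocked out. The source of these reads was not tested, and they do not settle the genotype of the mice. Any direction between genotypes below is therefore a direction between labels. The feeding labels do not depend on these reads.

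Long-chain fatty acids released by adipose tissue during a fast reach the liver in blood and are its main fuel then. CD36 and the fatty acid transport proteins of the Slc27a family help them cross the plasma membrane, and the Slc27a proteins also join them to coenzyme A. Fatty acid binding proteins (FABP) keep them soluble in the cytosol and hand them to enzymes and to PPARα, a receptor that they activate. PPARα pairs with RXR on DNA at a direct repeat of the half-site AGGTCA with a 1-base gap (DR1) and switches on genes of fatty acid use.

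Promoter windows are shown for the members with a match to this element or its half-site, since the receptor and its textbook targets are in the same set of genes. RefSeq windows on GRCm38.p6, from 250 bases before to 50 bases after the annotated start, were at hand for 6 of the 9 genes (Slc27a2, Slc27a4, Fabp1, Fabp2, Cd36 and Ppara). Capitals mark the best match to DR1 (AGGTCA, any base, AGGTCA) on either strand in Fabp1 (chr6:71199629-71199928, plus strand) and Cd36 (chr5:17835847-17836146, minus strand), and the half-site in Slc27a2 (chr2:126552774-126553073, plus strand).
Fabp1: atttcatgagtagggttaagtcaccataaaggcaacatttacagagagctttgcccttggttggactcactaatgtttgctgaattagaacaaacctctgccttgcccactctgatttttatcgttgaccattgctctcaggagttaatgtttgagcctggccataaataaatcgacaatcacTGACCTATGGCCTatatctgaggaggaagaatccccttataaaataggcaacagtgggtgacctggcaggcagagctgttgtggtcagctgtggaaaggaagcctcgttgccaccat
Cd36: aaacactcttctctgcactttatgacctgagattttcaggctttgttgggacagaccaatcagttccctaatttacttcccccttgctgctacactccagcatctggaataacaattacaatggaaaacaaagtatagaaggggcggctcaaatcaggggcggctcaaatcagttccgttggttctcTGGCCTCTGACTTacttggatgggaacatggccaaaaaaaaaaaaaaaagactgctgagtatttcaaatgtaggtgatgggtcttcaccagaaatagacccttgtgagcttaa
Slc27a2: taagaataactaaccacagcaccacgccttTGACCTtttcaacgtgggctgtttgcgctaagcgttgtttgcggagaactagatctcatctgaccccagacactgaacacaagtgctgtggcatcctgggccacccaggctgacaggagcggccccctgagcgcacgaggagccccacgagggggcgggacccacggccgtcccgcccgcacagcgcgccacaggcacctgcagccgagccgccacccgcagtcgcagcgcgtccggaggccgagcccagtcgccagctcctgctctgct
The Fabp1 window held DR1 with 1 mismatch from -67 to -55 relative to the start, a closeness found in 0.554% of 32851 promoter windows. The Cd36 window held it with 2 mismatches from -63 to -51, a closeness found in 3.86% of windows. This window lies inside the span of the gene (chr5:17781690-17888801). The upstream end of Cd36, at 17888801 on the minus strand, was not searched. Both matches lie on the strand opposite to the gene. The exact half-site, which is also contained in DR1, was in 16.3% of windows. It began at -67 and -9 in Fabp1, at -228 in Cd36 and at -220 in Slc27a2, and it was in none of the windows of Slc27a4, Fabp2 and Ppara. The windows of Slc27a2 and Ppara also lie inside the spans of their genes (chr2:126552407-126588243 and chr15:85734983-85802819). The upstream ends of these genes, at 126552407 and 85734983, were not searched either. A match in letters is a description of the sequence and not a bound site.

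Levels between genes were compared per kilobase of transcript. By this measure Fabp1 RNA was the most abundant of the 9 in every group, at rank 6 of 44565 genes in fed livers labelled Nts+/+, 17 in the fasted ones, 13 in fed livers labelled Nts-/- and 14 in the fasted ones. Slc27a5 (ranks between 140 and 167) and Slc27a2 (between 89 and 193) followed. Fabp4 (between ranks 6118 and 6624) was the lowest of the 9 in each group but the fasted livers labelled Nts-/-, where Fabp5 was lower at rank 6728.

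**Figure D1:**
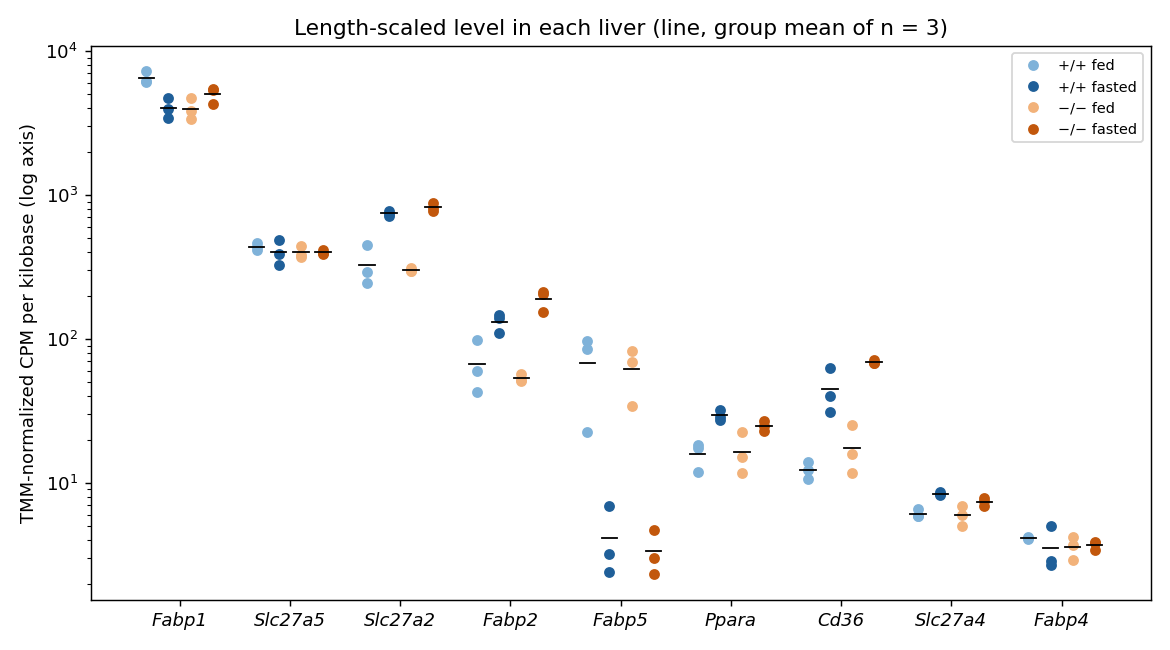
Length-scaled level of each gene in each of the 12 livers, in TMM-normalized CPM per kilobase of transcript on a log axis. Points are mice and lines are group means of 3. Fabp1 lies above all the others, Slc27a2 passes Slc27a5 in the fasted groups, and Fabp5 drops from near Fabp2 in fed livers to near Fabp4 in fasted ones.

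Among the uptake genes, fasting raised Cd36 and Slc27a2 in livers of both labels, by between 2.27 and 3.96 times, and Slc27a5 did not pass the test in either. Fasted and fed livers were compared within each label with edgeR's quasi-likelihood test, and p values were adjusted by Benjamini-Hochberg over 13812 genes and called under 0.05. The fasting comparisons of the labels share no mice.

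Cd36, the membrane scavenger receptor for long-chain fatty acids (ENSMUSG00000002944, chr5:17781690-17888801 on GRCm38, as all gene positions here), stood at 37.0, 49.3 and 43.4 TMM-normalized CPM in fed and at 108.9, 219 and 141.1 in fasted livers labelled Nts+/+. Those labelled Nts-/- had 41.2, 87.9 and 55.6 when fed and 251.7, 240.1 and 238.7 when fasted. Every fasted liver was above every fed liver, across labels too. The rise was 3.62-fold in livers labelled Nts+/+ (log2 fold change 1.85, SE 0.28, edgeR adjusted p = 0.00133) and 3.96-fold in those labelled Nts-/- (1.99, SE 0.29, edgeR adjusted p = 0.000748). The means ran from Nts+/+ fed through Nts-/- fed and Nts+/+ fasted to Nts-/- fasted. In this order the fed groups overlapped, and the other neighbours did not. The 3 fasted livers labelled Nts-/- were close together, while the fasted livers labelled Nts+/+ spread over a wider range. In bulk liver RNA, fewer cells of a type and less RNA per cell cannot be told apart, and Cd36 is also made by macrophages and endothelium. The summed macrophage markers were between 352.1 and 402.5 CPM in fed and between 177.9 and 299.5 in fasted livers labelled Nts+/+, and between 223.1 and 316.8 in fed and between 202.4 and 348.3 in fasted livers labelled Nts-/-. All 7 markers of that list were detected. The sum was thus lower in the fasted livers labelled Nts+/+, where Cd36 was higher, and it overlapped in those labelled Nts-/-. Of these markers fasting called 1 (Clec4f, 1.81-fold lower in livers labelled Nts+/+, edgeR adjusted p = 0.00569), while Marco was 7.71-fold higher in livers labelled Nts-/- without passing (edgeR adjusted p = 0.0909). The summed endothelial markers were between 151.4 and 203.4 CPM in fed and between 152.3 and 162.2 in fasted livers labelled Nts+/+, and between 166.6 and 207.9 in fed and between 138.7 and 174.8 in fasted livers labelled Nts-/-. Of the 7 tested, fasting called Lyve1 higher (2.25-fold, edgeR adjusted p = 0.00545) and Tek lower (1.47-fold, edgeR adjusted p = 0.021) in livers labelled Nts+/+, and 0 in those labelled Nts-/-, where 3 had an unadjusted p under 0.05. The part of these cells in the rise of Cd36 was not tested.

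Slc27a2, a very long-chain acyl-CoA synthetase and transport protein of the hepatocyte (ENSMUSG00000027359, chr2:126552407-126588243), had 855.4, 710.6 and 1310 TMM-normalized CPM in fed and 2163, 2268 and 2088 in fasted livers labelled Nts+/+. In livers labelled Nts-/- it had 913.2, 862 and 857.9 when fed and 2276, 2354 and 2548 when fasted. Fed and fasted livers were clearly separate, with mouse 323 the highest of the fed ones. The rise was 2.27-fold in livers labelled Nts+/+ (log2 fold change 1.18, SE 0.19, edgeR adjusted p = 0.00113) and 2.73-fold in those labelled Nts-/- (1.45, SE 0.19, edgeR adjusted p = 0.000248). Expected counts of Slc27a2 were not whole in 11 mice, which means that some of its reads were divided between rows of the table.

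Slc27a4, a transport protein better known from the intestine (ENSMUSG00000059316, chr2:29802634-29817522), had 38.2, 42.9 and 38.6 TMM-normalized CPM in fed and 56.1, 53.9 and 54.3 in fasted livers labelled Nts+/+, and rose 1.37-fold (log2 fold change 0.46, SE 0.12, edgeR adjusted p = 0.0194). Those labelled Nts-/- had 39.2, 33.0 and 45.1 when fed and 45.1, 51.1 and 48.8 when fasted, and the difference of 0.31 (SE 0.12, edgeR adjusted p = 0.0979) did not pass. It was low in all groups. The call in livers labelled Nts+/+ was lost without mouse 254 (adjusted p = 0.0841) or mouse 282 (0.0604), and the difference in those labelled Nts-/- reached adjusted p = 0.0256 without mouse 319. Slc27a5, which joins bile acids to coenzyme A and transports fatty acids at the sinusoidal membrane (ENSMUSG00000030382, chr7:12988346-12998192), had 971.5, 1020 and 1087 TMM-normalized CPM in fed and 1141, 914.3 and 770.4 in fasted livers labelled Nts+/+. In livers labelled Nts-/- it had 903, 1034 and 874.2 when fed and 917.4, 980.7 and 929.8 when fasted. The fed and fasted livers overlapped in both labels, and the 95% intervals of the log2 fold change ran from -0.45 to 0.20 and from -0.31 to 0.33 (edgeR adjusted p = 0.608 and 0.976).

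The make-up of the Slc27a members therefore differed between feeding states. Per kilobase, the ratio of Slc27a2 to Slc27a5 RNA was 0.746 ± 0.207 (SD, n = 3) in fed and 1.90 ± 0.338 in fasted livers labelled Nts+/+, and 0.758 ± 0.0766 in fed and 2.04 ± 0.143 in fasted livers labelled Nts-/-. Every fed liver was below 1 and every fasted liver above it.

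The binding proteins did not move as a family. Fabp2 rose and Fabp5 fell with fasting in livers of both labels, Fabp1 fell in those labelled Nts+/+ and did not pass in the others, and Fabp4 passed the test in neither.

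**Figure D2:**
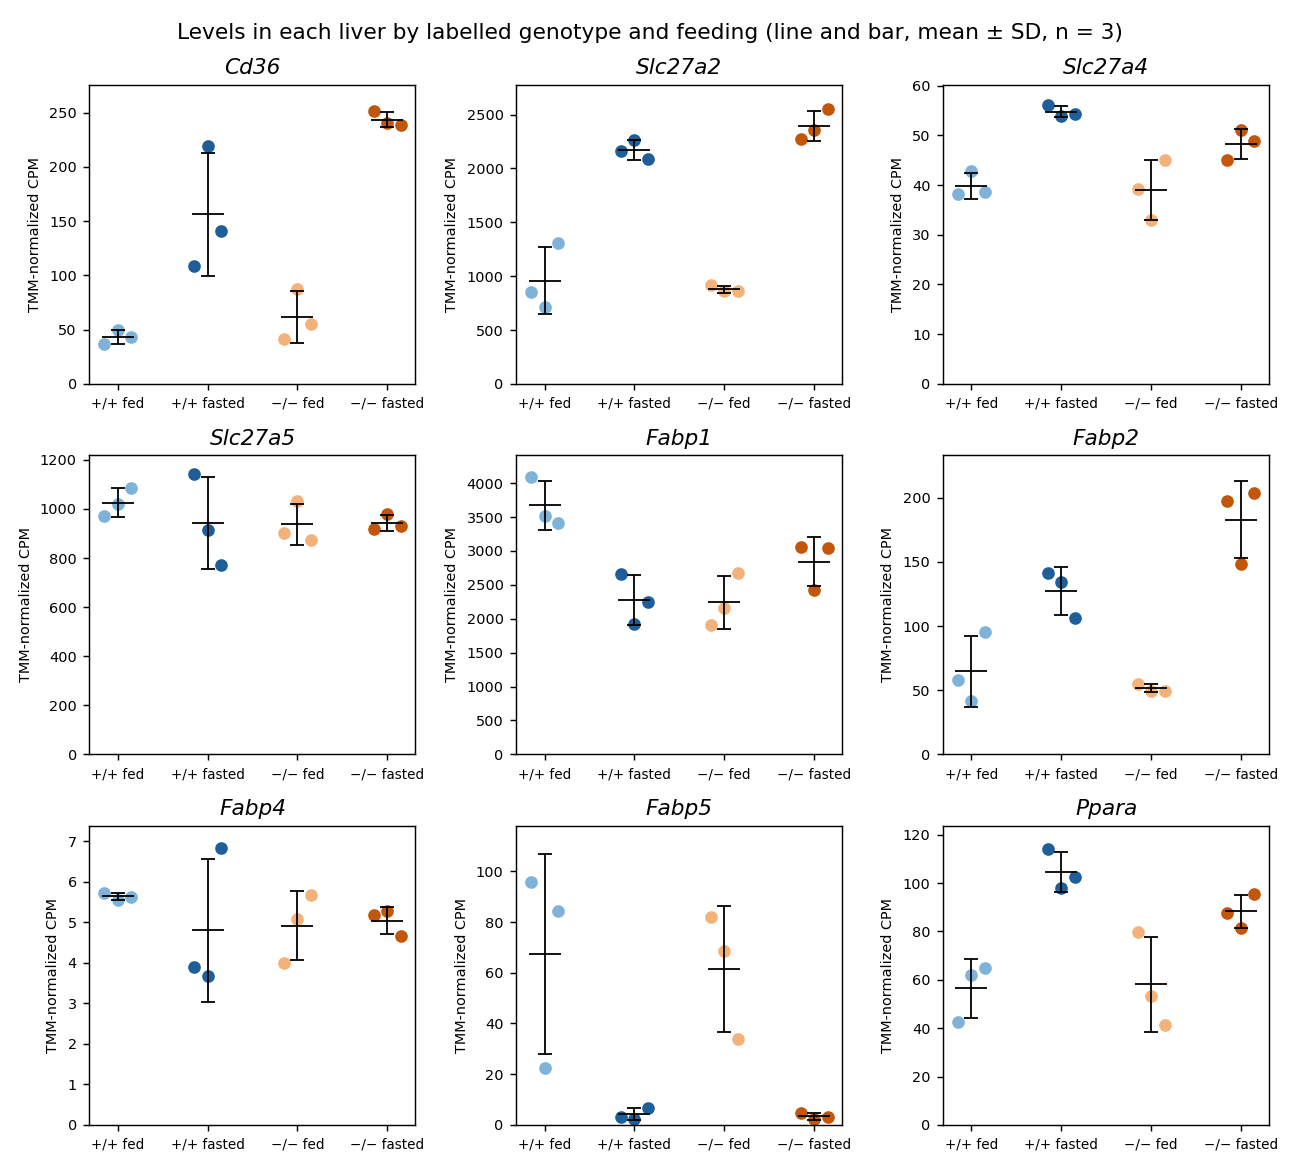
TMM-normalized CPM of the 9 genes in each of the 12 livers, by label (+/+ for Nts+/+, −/− for Nts-/-) and feeding state. Points are mice, the horizontal line and bar give mean ± SD of 3 mice, and every axis starts at 0. Cd36, Slc27a2 and Fabp2 are higher and Fabp5 lower in both fasted groups, and Fabp1 is highest in fed livers labelled Nts+/+.

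Fabp1, the liver form that makes up most of the FABP RNA (ENSMUSG00000054422, chr6:71199827-71205023), had 4088, 3510 and 3419 TMM-normalized CPM in fed and 2660, 1923 and 2248 in fasted livers labelled Nts+/+. Those labelled Nts-/- had 1906, 2160 and 2672 when fed and 3063, 2426 and 3042 when fasted. The 3 fed livers labelled Nts+/+ stood above the other 9. Fabp1 fell by 0.69 on the log2 scale with fasting in livers labelled Nts+/+ (SE 0.17, 1.61-fold lower, edgeR adjusted p = 0.0156), and this call was lost without mouse 254 (adjusted p = 0.0792) or mouse 282 (adjusted p = 0.0886). The change of 0.34 in livers labelled Nts-/- (95% interval from -0.03 to 0.71, edgeR adjusted p = 0.199) did not pass. A measure taken over the tested genes of each library moved with Fabp1, whose transcript is short at 564 bases. The trend of log2 counts with transcript length, read at that length, lay between 0.05 and 0.14 in fed and between -0.12 and -0.05 in fasted livers labelled Nts+/+. In those labelled Nts-/- it was -0.14, -0.08 and 0.22 when fed and 0.17, 0.04 and 0.14 when fasted. Within each label the feeding state with the higher mean trend was thus also the one with more Fabp1. With the trend removed the fall in livers labelled Nts+/+ was 0.53 on the log2 scale (log2 fold change -0.53, edgeR adjusted p = 0.0263). Whether the trend arose in the libraries or in the livers was not tested.

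Fabp2, the intestinal form (ENSMUSG00000023057, chr3:122895072-122899506), had 58.1, 41.2 and 95.1 TMM-normalized CPM in fed and 141.4, 134.2 and 106.2 in fasted livers labelled Nts+/+. Those labelled Nts-/- had 55.2, 49.7 and 49.6 when fed and 197.1, 148.3 and 203.4 when fasted. No fed liver reached a fasted one in either label. The rise was 1.96-fold in livers labelled Nts+/+ (log2 fold change 0.97, SE 0.24, edgeR adjusted p = 0.0165) and 3.55-fold in those labelled Nts-/- (1.83, SE 0.25, edgeR adjusted p = 0.000444). In livers labelled Nts+/+ the call was lost without mouse 254 (adjusted p = 0.0738), mouse 265 (0.0515) or mouse 282 (0.0603). Of the 10 intestinal markers, 3 (Sis, Cdx1 and Cdx2) were at 0 in all 12 livers. The summed list was between 1.73 and 7.42 CPM in fed and between 5.91 and 6.69 in fasted livers labelled Nts+/+, and between 1.30 and 5.84 in fed and between 6.57 and 15.9 in fasted livers labelled Nts-/-, nearly all of it Lgals4. Lgals4 did not pass the test with fasting (4.33-fold in livers labelled Nts-/-, edgeR adjusted p = 0.0645), and the part of such cells in the rise of Fabp2 was not tested.

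Fabp4, the form of adipocytes and macrophages (ENSMUSG00000062515, chr3:10204088-10208576), had between 3.67 and 6.83 TMM-normalized CPM in the 12 livers. Its fasting changes were -0.22 in livers labelled Nts+/+ (95% interval from -0.71 to 0.26, edgeR adjusted p = 0.534) and 0.04 in those labelled Nts-/- (from -0.45 to 0.52, edgeR adjusted p = 0.934). Adipocyte markers were near the floor, with a summed level between 0.529 and 2.08 CPM and 3 of 7 genes (Lep, Retn and Ucp1) at 0 in all 12 livers.

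Fabp5, the epidermal form (ENSMUSG00000027533, chr3:10012548-10016607), had the largest log2 fold change of the 9 genes in both fasting comparisons. It had 95.9, 22.4 and 84.3 TMM-normalized CPM in fed and 3.18, 2.38 and 6.83 in fasted livers labelled Nts+/+. Those labelled Nts-/- had 82.0, 68.7 and 33.9 when fed and 4.67, 2.30 and 3.00 when fasted. Fed livers varied widely, with mouse 257 the lowest, yet all 6 stood above all 6 fasted livers. Fabp5 fell by 4.01 on the log2 scale in livers labelled Nts+/+ (SE 0.67, 16.1-fold lower, edgeR adjusted p = 0.00428) and fell by 4.22 in those labelled Nts-/- (SE 0.68, 18.7-fold lower, edgeR adjusted p = 0.00375). Fabp5 is also made by macrophages, whose markers are given above, and their part in the fall was not tested. Its expected counts were not whole in 7 mice.

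Within the FABP members, per kilobase, Fabp1 held between 95.9% and 98.9% of the RNA in every liver. Fabp2 made up 1.02% ± 0.485 (SD, n = 3) in fed and 3.20% ± 0.638 in fasted livers labelled Nts+/+, and 1.33% ± 0.280 in fed and 3.61% ± 0.156 in fasted livers labelled Nts-/-. Fabp5 went the other way, from 1.01% ± 0.562 to 0.100% ± 0.0583 in livers labelled Nts+/+ and from 1.60% ± 0.830 to 0.0630% ± 0.0177 in those labelled Nts-/-. Every fasted liver had a larger Fabp2 share and a smaller Fabp5 share than every fed liver.

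Ppara, the receptor (ENSMUSG00000022383, chr15:85734983-85802819), had 42.6, 62.2 and 64.8 TMM-normalized CPM in fed and 114, 97.9 and 102.4 in fasted livers labelled Nts+/+. In livers labelled Nts-/- it had 79.8, 53.4 and 41.5 when fed and 87.7, 81.6 and 95.6 when fasted. All fasted livers were above all fed ones, but mouse 277 came close. Ppara rose 1.85-fold in livers labelled Nts+/+ (log2 fold change 0.89, SE 0.21, edgeR adjusted p = 0.0119), a call lost without mouse 254 (adjusted p = 0.0546). The difference of 0.60 in livers labelled Nts-/- (SE 0.21, edgeR adjusted p = 0.0687) did not pass, and it reached adjusted p = 0.0105 without mouse 277 and 0.0321 with DESeq2. In order of the means, fed livers labelled Nts+/+ and Nts-/- overlapped at the bottom, followed by fasted livers labelled Nts-/- and then Nts+/+, which did not overlap.

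In all, fasting called 7 of the 9 genes in livers labelled Nts+/+ (5 higher and 2 lower), where 18.1% of all tested genes were called (8.91% higher and 9.19% lower). It called 4 of the 9 in livers labelled Nts-/- (3 higher and 1 lower), where 16.8% of all tested genes were called (7.7% higher and 9.14% lower). Fed and fasted mice did not overlap in 7 of the 9 genes in livers labelled Nts+/+ (36% of all tested genes) and in 6 of the 9 in those labelled Nts-/- (35.2%), and an unadjusted p under 0.05 was met by the same numbers of genes, 7 (32.5% of all tested genes) and 6 (31.7%). The count of 7 calls fell to 3 without mouse 254 and to 4 without mouse 282. The calls over all genes fell too, from 2501 to 1326 and to 1224. Where a log2 fold change of at least 1 was also asked, 3 of the 9 were left in livers labelled Nts+/+ (911 of all genes). In those labelled Nts-/- 4 of the 9 were left (915 of all genes). The 4 genes called in both labels were Cd36, Slc27a2, Fabp2 and Fabp5, which is 44.4% of the 9 against 10.7% of all tested genes. The signs were the same in both labels for 6 of the 9 genes (66.7%), against 74.4% of all tested genes, and the exceptions were Fabp1, Fabp4 and Slc27a5. Since the 9 genes were chosen by hand, these shares describe them and are not a test.

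**Figure D3:**
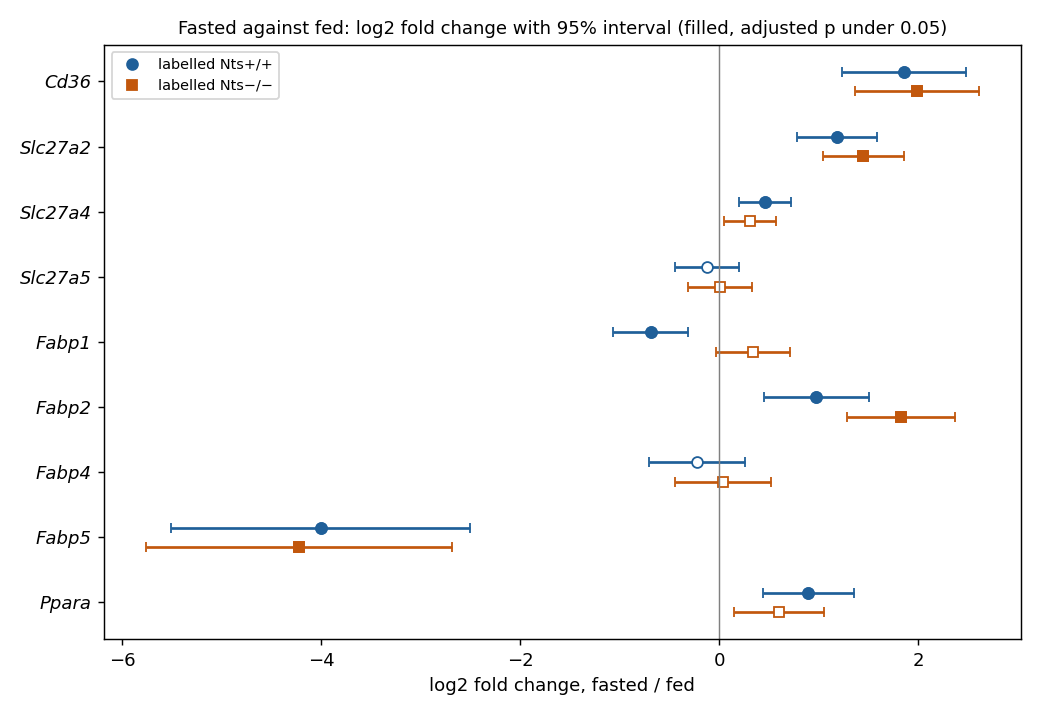
Log2 fold change of fasted against fed livers for the 9 genes, with the 95% interval, in livers labelled Nts+/+ (blue circles) and Nts-/- (orange squares). Filled symbols are adjusted p under 0.05. Cd36, Slc27a2, Fabp2 and Fabp5 are filled for both labels, and Fabp1 lies on opposite sides of 0.

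Other genes of the pathway were taken from lists written for this purpose, with earlier results of these data known. Counts over these lists are therefore a description and not a test. Of 16 other genes of fatty acid uptake and binding, 10 could be tested, and fasting called 2 higher and 2 lower in each label, with the same 4 genes called. Over all tested genes 18.1% were called in livers labelled Nts+/+ and 16.8% in those labelled Nts-/-. Slc27a1, the transport protein of muscle and fat, rose 4.60-fold in livers labelled Nts+/+ (between 4.67 and 7.31 CPM fed, between 21.6 and 34.2 fasted, edgeR adjusted p = 7.92e-05) and 4.73-fold in those labelled Nts-/- (edgeR adjusted p = 4.86e-05). Mfsd2a, a transporter of lysophospholipids, rose 6.02-fold (edgeR adjusted p = 0.0153) and 7.25-fold (edgeR adjusted p = 0.0107). Dbi, the acyl-CoA binding protein, fell by 1.22 and by 0.65 on the log2 scale (edgeR adjusted p = 0.000859 and 0.0282), and Lipc, hepatic lipase, fell by 0.74 and by 0.64 (edgeR adjusted p = 0.00634 and 0.0136). The list's median log2 fold change was -0.09 and 0.23, against -0.0032 and -0.0108 over all tested genes.

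Among 18 partners of the receptor (other PPARs, RXRs, Hnf4a, coactivators and corepressors), all tested, fasting called 0 higher and 1 lower in livers labelled Nts+/+ and 1 higher and 1 lower in those labelled Nts-/-. The shares called over all tested genes were 18.1% and 16.8%. Ppard, a sister receptor, had between 17.7 and 34.1 CPM in fed and between 5.55 and 7.78 in fasted livers labelled Nts+/+ and fell by 1.93 on the log2 scale (SE 0.21, edgeR adjusted p = 0.000123). In livers labelled Nts-/- Ppard went from between 31.3 and 34.9 CPM to between 4.49 and 5.59 and fell by 2.67 (SE 0.22, edgeR adjusted p = 1.05e-05). In livers labelled Nts+/+, where Ppara also passed, the receptors changed in opposite directions. Pparg, the form of adipocytes, rose 1.59-fold in livers labelled Nts-/- (edgeR adjusted p = 0.038), and its 1.35-fold difference in those labelled Nts+/+ did not pass (edgeR adjusted p = 0.159).

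Of 30 textbook targets of PPARα, 29 could be tested. Fasting called 22 of them higher and 0 lower in livers labelled Nts+/+ (median log2 fold change 1.20) and 24 higher and 0 lower in those labelled Nts-/- (median 1.52). Of all tested genes, 8.91% and 7.7% were called higher in these comparisons. In livers labelled Nts+/+ the smallest p belonged to Cyp4a14, an omega-hydroxylase of fatty acids, Ehhadh, a peroxisomal oxidation enzyme, and Pex11a, a factor of peroxisome division. In those labelled Nts-/- it belonged to Cyp4a14, Ehhadh and Acadm, the medium-chain acyl-CoA dehydrogenase. Cyp4a14 rose 9.71-fold in livers labelled Nts+/+ and 13.2-fold in those labelled Nts-/-. Ehhadh rose 7.13-fold and 7.86-fold, Pex11a 3.77-fold and 4.17-fold, and Acadm 2.40-fold and 2.99-fold. Each of these 4 genes was called in both labels. Over the tested targets the log2 fold changes ran from -0.55 to 3.38 in livers labelled Nts+/+ and from 0.39 to 3.88 in those labelled Nts-/-.

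**Figure D4:**
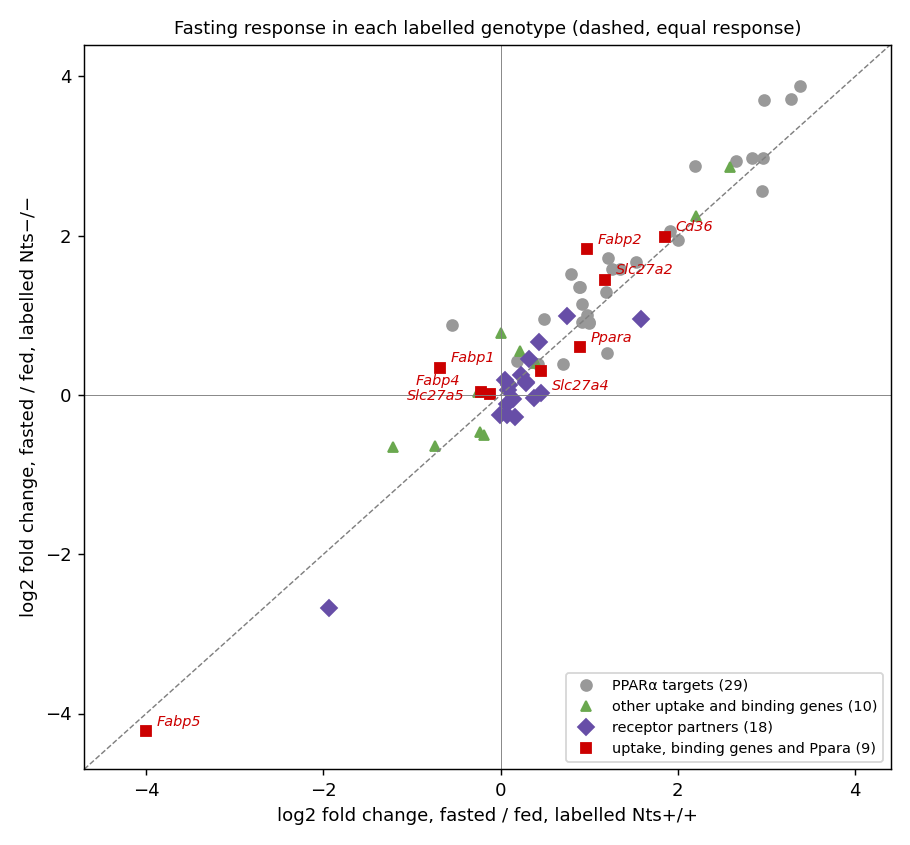
Log2 fold change with fasting in livers labelled Nts-/- (vertical axis) against that in livers labelled Nts+/+ (horizontal axis), for the 9 genes (red squares) and for the tested genes of the 3 lists. The dashed line marks equal responses. Most PPARα targets, Cd36, Slc27a2 and Fabp2 lie in the upper right, Fabp5 and Ppard in the lower left, and Fabp1 in the upper left.

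Livers labelled Nts-/- and Nts+/+ were compared next, to ask whether the genotype touches these genes. None of the 9 was called when fed (0% of all tested genes were), when fasted (0%) or in the mean of both feeding states (0%). Nts, with counts only under the label Nts-/-, did not pass either (edgeR adjusted p = 0.304, 0.917 and 0.056). A lack of calls here therefore does not show equal levels. At an unadjusted p under 0.05, edgeR gave 1 of the 9 genes in fed livers (Fabp1, where 6.34% of all genes passed), 1 in fasted livers (Cd36, where 4.96% did) and 1 in the mean of both (Cd36, where 6.22% did). DESeq2 called 1 of the 9 in fed livers (Fabp1), where it called 12 genes in all. It called 0 of the 9 in fasted livers (1 gene in all) and 0 in the mean of both (15 in all).

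Cd36 was 1.56-fold higher in fasted livers labelled Nts-/- (log2 fold change 0.64, 95% interval from 0.04 to 1.24, edgeR adjusted p = 0.917), with all 3 mice above all 3 labelled Nts+/+. In fed livers the difference was 0.51 (from -0.10 to 1.11, edgeR adjusted p = 0.792), and the groups overlapped. Over both feeding states it was 0.57 (from 0.15 to 1.00, edgeR adjusted p = 0.76). Cd36 did not pass the correction in any of these. Since Nts counts do not settle the genotypes, its direction is one between labels only.

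Fabp1 was 1.64-fold lower in fed livers labelled Nts-/- (log2 fold change -0.71, 95% interval from -1.09 to -0.33), with all 3 mice below all 3 labelled Nts+/+. This difference had rank 21 of 13812 genes by p (edgeR adjusted p = 0.709), and DESeq2 called it with an adjusted p of 0.0488. In fasted livers the difference was 0.32 in the other direction (from -0.05 to 0.69, edgeR adjusted p = 0.917). The length trend at 564 bases, given above, was higher in all fed livers labelled Nts+/+ than in mice 277 and 303, and lower than in mouse 319. With that trend removed the fed difference was -0.64 (edgeR adjusted p = 0.631) and the fasted one 0.12 (edgeR adjusted p = 0.977).

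For the other genes the fed and fasted intervals all included 0. In fasted livers Fabp2 was 1.44-fold higher in those labelled Nts-/- (log2 fold change 0.52, 95% interval from -0.0012 to 1.05, edgeR adjusted p = 0.917), and the groups did not overlap. Slc27a2 was also higher and Slc27a4 and Ppara lower in all 3 fasted livers labelled Nts-/-, by 0.14, -0.18 and -0.25 on the log2 scale. Such separation of 3 mice from 3 was seen in 5 of the 9 genes when fasted (3 higher and 2 lower), where 12.2% of all tested genes had it (5.29% higher and 6.88% lower). When fed it was seen in 1 of the 9 (lower), where 10.7% of all tested genes had it (5.85% lower). The 95% intervals of the log2 fold change were from -0.53 to 0.27 when fed and from -0.26 to 0.54 when fasted for Slc27a2. For Slc27a4 they were from -0.29 to 0.23 and from -0.44 to 0.08, and for Ppara from -0.41 to 0.50 and from -0.70 to 0.21. Fabp2 when fed had an interval from -0.86 to 0.20, and Fabp4 had intervals from -0.69 to 0.28 and from -0.43 to 0.54. For Slc27a5 the intervals were from -0.45 to 0.19 when fed and from -0.32 to 0.32 when fasted, and for Fabp5, whose mice varied most, from -1.43 to 1.17 and from -1.84 to 1.14.

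**Figure D5:**
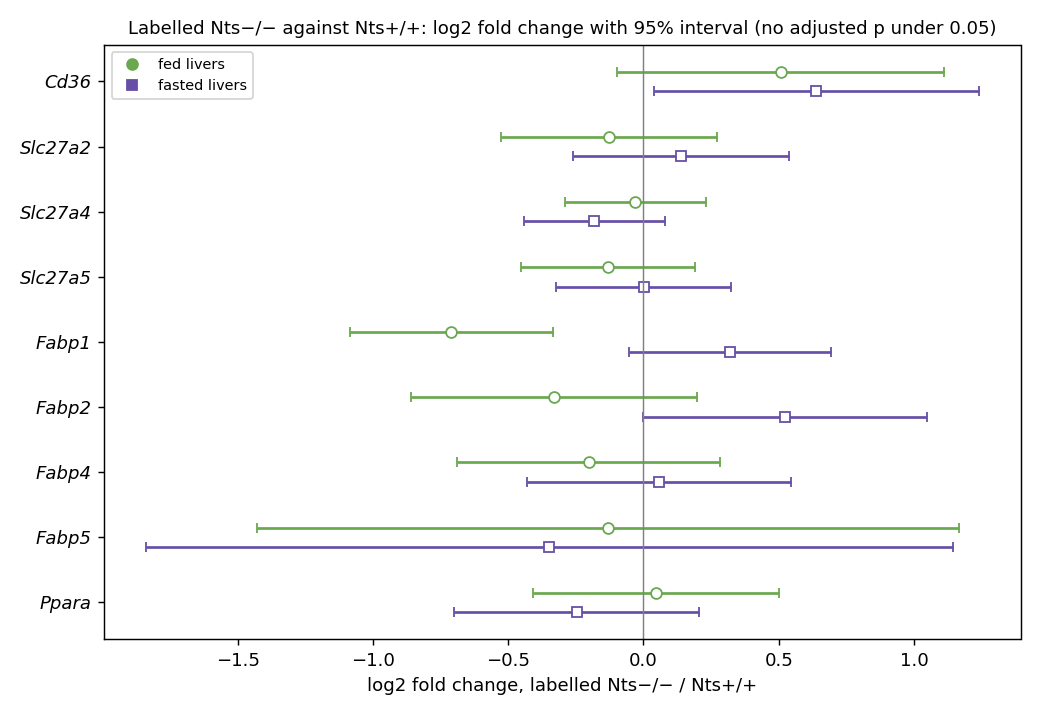
Log2 fold change of livers labelled Nts-/- against those labelled Nts+/+ for the 9 genes, with the 95% interval, in fed (green circles) and fasted livers (purple squares). All symbols are open since no adjusted p was under 0.05. The intervals of Fabp1 in fed and Cd36 in fasted livers leave out 0.

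Whether fasting acted differently under the labels was tested as the difference of the responses. None of the 9 was called by edgeR (0% of all tested genes were), and DESeq2 called 0 of the 9 and 2 genes in all. An unadjusted edgeR p under 0.05 was met by 2 of the 9 (Fabp1 and Fabp2) and by 4.8% of all genes. Fabp1 differed by 1.03 on the log2 scale (95% interval from 0.50 to 1.56, edgeR adjusted p = 0.897), at rank 8 of 13812 by p, and by 0.76 with the length trend removed. Fabp2 differed by 0.85 (from 0.11 to 1.60, edgeR adjusted p = 0.897), and by 0.63 with that trend removed. For Cd36 the interval ran from -0.72 to 0.98, for Slc27a2 from -0.30 to 0.83 and for Ppara from -0.93 to 0.35, so responses that differ by less than these bounds are not told apart. This comparison shares its mice with those above.

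The lists gave 0 calls between labels by edgeR in fed and fasted livers, in their mean and in the difference of responses. At an unadjusted p under 0.05, the 10 tested other uptake and binding genes gave 2 in fed and 0 in fasted livers. The 18 receptor partners gave 0 and 2, and the 29 tested PPARα targets 1 and 0. Over all tested genes 6.34% met it in fed and 4.96% in fasted livers. In the mean of both feeding states the lists gave 1, 0 and 0 (6.22% of all tested genes), and in the difference of responses 1 each (4.8%). The genes with the smallest p in fed livers were Dbi (log2 fold change -0.48, edgeR adjusted p = 0.734), Ppard (0.38, 0.777) and Slc25a20, the carnitine carrier (-0.35, 0.758). In fasted livers they were Fabp7, the brain form (0.33, 0.922), Ncoa1, a coactivator (-0.39, 0.917), and Acadm (0.29, 0.917). In the mean of both feeding states they were Gpihbp1, the endothelial anchor of lipoprotein lipase (-0.29, 0.77), Hnf4a, a hepatocyte nuclear receptor (-0.25, 0.788), and Pex11a (-0.28, 0.788). In the difference of responses they were Dbi (0.57, 0.897), Ppard (-0.74, 0.897) and Slc25a20 (0.46, 0.897).

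The genes whose log2 CPM, centred over the 12 mice, lay nearest to each member were sought among the 13811 other tested genes by root mean square difference. Slc27a2 was nearest to Hadhb (0.10 on the log2 scale) and Pgm3 (0.11), while its own SD over the mice was 0.73. Fabp2 was nearest to Slc27a2 (0.21), Acaa1a and Eci1, and Ppara to Cmtm4 (0.18), Abca6 and Ctif. Hadhb, Acaa1a and Eci1 encode enzymes of fatty acid oxidation. Fabp1 was nearest to Phpt1 (0.09), Rpl35a and Shfm1. Fabp5 was nearest to Prok1 (0.46), Fdps, an enzyme of cholesterol synthesis (0.59), and Gm3571, against an SD of 2.21. Cd36 was nearest to Olig1 (0.39, against an SD of 1.10), a gene without a symbol (ENSMUSG00000110344) and Clstn3. The genes that varied least had near neighbours of many kinds, with Eif3b, Cdk18 and Gsk3a for Slc27a4, Evi5, C330006A16Rik and Hnrnpul2 for Slc27a5, and Stk17b, Ddx50 and 2810025M15Rik for Fabp4. These distances are over mice that share their feeding groups and are a description.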

How the data were processed

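Liver RNA of 12 mice was sequenced. The authors deposited expected counts (read numbers per gene as estimated by the counting program, unscaled and not always whole) for 48795 genes on GRCm38. Trimmomatic and RSEM are named in the submitters' processing notes without versions, and strand is not given in the sources used here. Counts were rounded. In R 4.3.3, edgeR 4.0.16 kept 13812 genes (filterByExpr), normalized them with TMM and fitted 1 robust quasi-likelihood model of the 4 group means, with 6 comparisons and Benjamini-Hochberg adjustment (threshold 0.05). With 3 mice per group, p values set a difference of group means against a spread between mice. That spread was estimated over all 12 mice together and drawn towards that of other genes. The genes and lists were chosen with earlier results of these data known. Of each list, up to 3 higher and 3 lower called genes per fasting comparison and the 1 with the smallest p per genotype comparison were named. Transcript lengths came from GENCODE vM39 (99.2% of tested genes). The edgeR comparison of fasted and fed livers labelled Nts+/+ was checked on simulated counts. The other comparisons and the alternative fits were not. Alternatives were DESeq2 1.42.0, RLE and upper-quartile scaling, other filters, only the groups compared, a log2 fold change minimum of 1 and leaving out each mouse. An offset removing the trend with transcript length was chosen after seeing the data. One of the nearest genes is not reported here.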

Additional observations from a re-analysis of the deposited data

How the results depend on the processing

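Of 126 log2 fold changes of the 9 genes in the fasting comparisons under alternatives other than leaving out a mouse, 120 kept their direction and their side of the threshold, and of 234 in the genotype comparisons 229 did. Ppara fasting in livers labelled Nts-/- became a call with DESeq2 (adjusted p = 0.0321) and with the length trend removed (0.0483). In livers labelled Nts+/+, Fabp2 was lost with only the groups compared (0.0629) and Slc27a4 with the length trend removed (0.0719). Asking for a log2 fold change of at least 1 left 911 genes and 3 of the 9 in livers labelled Nts+/+. In those labelled Nts-/- it left 915 genes and 4 of the 9. DESeq2 called 12 genes between labels when fed (1 of the 9), 1 when fasted, 15 in the mean of both and 2 in the difference of responses. Without a count filter the fed comparison and the mean of both gave 1 gene each, and with only the groups compared the fasted comparison gave 1. The signs that turned were of values that were not called. Slc27a5 fasting in livers labelled Nts-/- was -0.0221 with upper-quartile scaling, and Slc27a5 between fasted labels was -0.003 without a count filter and -0.0178 with the length trend removed. With that trend removed, Fabp4 was -0.0088 for fasting in livers labelled Nts-/- and -0.0265 between fasted labels, and Fabp5 was 0.0026 between fed labels.

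Leaving out each mouse gave between 1224 and 2418 genes for fasting in livers labelled Nts+/+ (1224 without mouse 282, 1326 without 254 and 1596 without 257) and between 3 and 7 of the 9. In livers labelled Nts-/- it gave between 1358 and 2631 genes (1358 without mouse 277, 1365 without 290 and 1523 without 284) and 4 or 5 of the 9. It gave between 0 and 2 genes between fed labels, between 0 and 4 in the mean of both and between 0 and 1 in the difference of responses. The log2 fold changes whose sign turned without 1 mouse, none of them called, had these ranges. For fasting, Slc27a5 ran from -0.2736 to 0.0035 in livers labelled Nts+/+ and from -0.0379 to 0.0933 in those labelled Nts-/-, and Fabp4 from -0.0945 to 0.1546 in the latter. Between fed labels, Fabp2 ran from -0.572 to 0.0533, Fabp5 from -0.5481 to 0.2018, Ppara from -0.2491 to 0.239, Slc27a2 from -0.3032 to 0.1649 and Slc27a4 from -0.1439 to 0.0765. Between fasted labels, Fabp4 ran from -0.0988 to 0.4124, Fabp5 from -0.6518 to 0.2588 and Slc27a5 from -0.1244 to 0.1556. In the mean of both, Fabp2 ran from -0.0241 to 0.2885, Fabp4 from -0.1517 to 0.1051, Fabp5 from -0.4482 to 0.0638, Slc27a2 from -0.0822 to 0.1518 and Slc27a5 from -0.1277 to 0.0129. In the difference of responses, Cd36 ran from -0.0867 to 0.4845, Fabp5 from -0.5413 to 0.39, Ppara from -0.4853 to 0.0099 and Slc27a2 from -0.0263 to 0.4421. The cause of these changes was not tested. No paired analysis was possible because no mouse number occurs in more than 1 group. All 9 genes were above the floor of 3 counts in every mouse, and what sets the width of the intervals was not tested.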
